A study of Mus musculus with 8 samples.

Results

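Transcript levels of 53 genes of Wnt and Notch signalling were examined in cultured mouse kidney tubular epithelial cells (TECs), out of 14145 genes in the deposited table. The members were chosen by gene symbol, with earlier results of these data known. Among them 41 are Wnt members (ligands, Frizzled and Lrp receptors, secreted inhibitors, Dvl, Axin and Apc, TCF factors, Tle corepressors and feedback genes). The other 12 belong to the Notch pathway (ligands, receptors, Rbpj, Maml1 and the Hes and Hey factors). Of the names that fit these patterns in the mouse annotation, 41 of 57 Wnt names and 12 of 17 Notch names had a row. Wnt1, Wnt3, Wnt3a, Wnt6, Wnt8a, Wnt8b, Wnt9b, Fzd9, Fzd10, Sfrp2, Sfrp4, Sfrp5, Dkk1, Dkk4, Lef1, Nkd1, Notch4, Hes2, Hes3, Hes5 and Hes7 were not among the genes analysed here. A level of at least 1 FPKM (a read count corrected for exon length and depth) in at least 4 libraries was reached by 35 of the Wnt members and 10 of the Notch members.

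KO cells were primary TECs of mice lacking Aldh2, the mitochondrial aldehyde dehydrogenase, in tubular epithelium (4 libraries), and WT cells were primary TECs of control mice (4 libraries). Both groups were grown in the same serum-supplemented medium and left untreated. The labels give neither the Cre driver, the strain, the age nor the sex of the animals, nor the number of animals behind a library, so p-values measure the spread between libraries, which may be technical. The genotype field of the KO samples carries running gene names from ALDH2 to ALDH5, and groups were therefore taken from the titles.

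Depth, recovered from the values, was 17890000 to 18760000 reads or fragments in KO libraries and 17050000 to 17760000 in WT libraries. Aldh2 itself was at 0.88 to 1.64 FPKM in KO and at 23.69 to 31.08 FPKM in WT libraries. The 8 general tubular epithelial markers were all measured and summed to 831 to 6190 FPKM in KO and 1390 to 3020 FPKM in WT libraries, whereas 3 of 8 proximal tubule markers had a row, at summed levels of 1.73 to 22.7 FPKM in KO and 3.00 to 20.0 FPKM in WT libraries, and Cubn, Slc34a1 and Slc5a2 were not among the genes analysed here. KO 1 and KO 2 carried Xist at 14.53 and 38.31 FPKM and the other libraries at no more than 0.01 FPKM. Y-linked transcripts summed to 0.07 and 0.00 FPKM in KO 1 and KO 2, to 5.79 and 12.16 FPKM in KO 3 and KO 4, and to 19.96 to 34.10 FPKM in WT libraries. KO 1 and KO 2 were therefore taken as female and the remaining 6 libraries as male. The cause of the lower Y-linked level in KO 3 and KO 4 than in WT was not tested. In KO 3 and KO 4 the difference from the WT mean increased with the GC content of the transcript (Spearman rho 0.65 and 0.62 across 12058 genes, a description of these libraries), against -0.29 and 0.06 in KO 1 and KO 2 and -0.25 to 0.33 in WT libraries. With exon length, rho was -0.31, -0.08, -0.43 and -0.41 in KO 1 to 4 and -0.28 to 0.13 in WT libraries. Negative values mean that longer genes stood lower. Median lengths were 4818 bases for Wnt and 5677.5 for Notch members, beside 3956 over all genes.

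Wnt ligands bind Frizzled receptors and the co-receptors Lrp5 and Lrp6 at the cell surface, which recruits Dvl proteins and halts the destruction complex built on Axin and Apc, so that beta-catenin accumulates and acts with TCF/LEF factors in the nucleus. Notch receptors are cleaved after contact with Jagged or Delta-like ligands on a neighbouring cell, and the freed intracellular part joins Rbpj and a Mastermind protein to switch on Hes and Hey genes. Both pathways pattern the nephron during development and are active again after tubular injury.

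No Wnt or Notch member passed an adjusted p of 0.05 over all genes (limma on log2(FPKM + 1), 0 of 41 and 0 of 12), in a comparison where 0.0778% of all genes passed. At an unadjusted p below 0.05, 13 of 41 Wnt members and 5 of 12 Notch members were lower in KO, against 11.6% of all genes, and none of either was higher, against 7.58% of all genes. The 4 KO values lay wholly below the 4 WT values for 9 Wnt members (22.0%) and 2 Notch members (16.7%), against 6.86% of all genes, and wholly above them for 1 Wnt member, Tle6, and for 0 Notch members, against 4.76% of all genes. The median log2 fold change was -0.40 over the Wnt members and -0.58 over the Notch members, beside -0.06 over all genes, and 30 of 41 Wnt members and 10 of 12 Notch members had a negative value, against 55.5% of all genes. In bulk RNA of this kind, fewer cells of a type and less RNA per cell cannot be told apart.

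**Figure D1:**
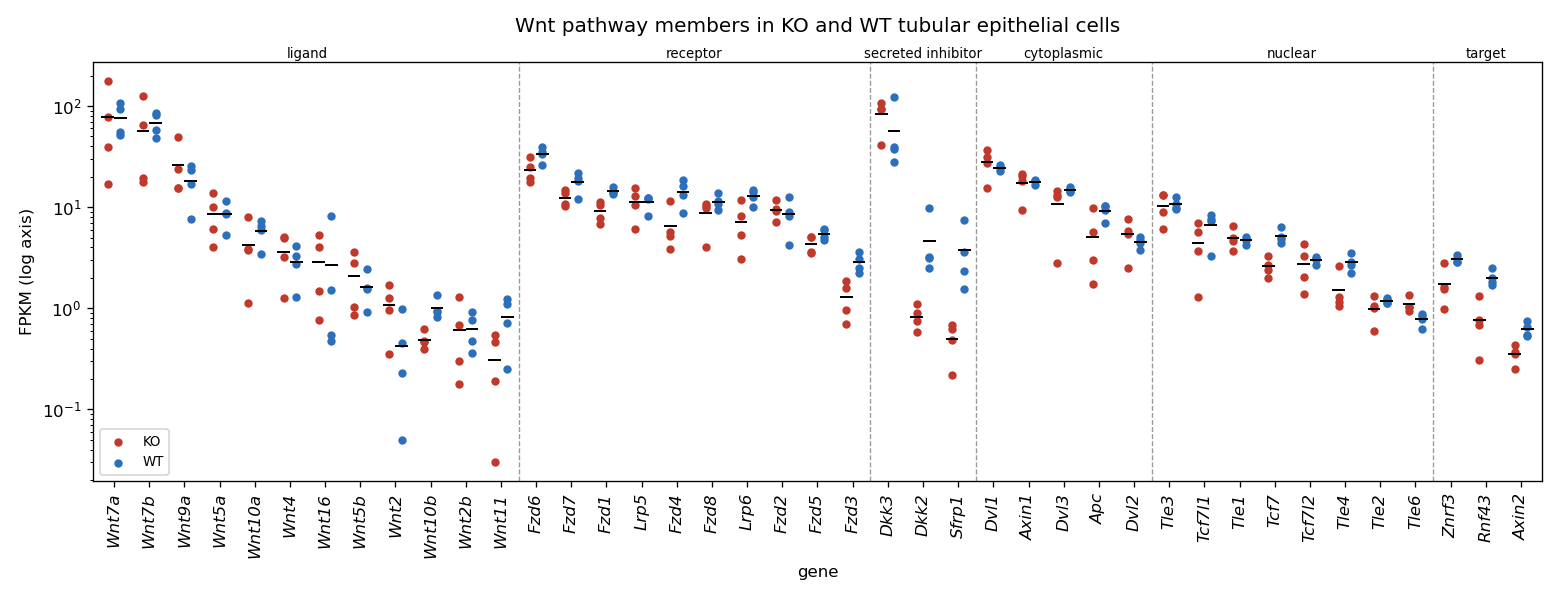
FPKM of the 41 Wnt pathway members on a log axis, grouped by role, with each of the 4 KO libraries (red) and 4 WT libraries (blue) as a point and the group mean as a black bar. Sfrp1, Dkk2, Rnf43 and Tcf7 show KO points wholly below the WT points, while Wnt7a and Wnt7b spread widely among the KO libraries.

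Of the 12 measured Wnt ligands, each but Wnt10b had overlapping groups, and the KO libraries of the abundant ones spread widely. Wnt7a, a ligand of epithelia, was the most abundant, at 39.14, 16.88, 175.07 and 77.75 FPKM in KO 1 to 4, against 55.40, 93.73, 106.50 and 51.22 FPKM in WT 1 to 4. The KO libraries thus held both the lowest and the highest value, and the means of 77.2 ± 69.9 and 76.7 ± 27.6 FPKM (SD, n = 4 each) did not pass the test (limma, log2 fold change -0.40, SE 0.61, adjusted p = 0.721). The sign of this Wnt7a value turned with the libraries used, to 0.15 without KO 2 and 0.67 in the male libraries alone, and it was -0.95 without KO 3. Wnt7b, which acts in collecting duct growth, had the KO libraries in the same order, at 19.38, 17.77, 125.04 and 64.79 FPKM, against 58.15, 81.14, 85.21 and 47.77 FPKM in WT. The summed tubular epithelial markers were likewise lowest in KO 2 and highest in KO 3, at 1400, 831, 6190 and 2950 FPKM in KO 1 to 4, and the part of epithelial content in the Wnt7a and Wnt7b levels was not tested. Of the collecting duct markers 4 of 6 had a row, all 4 with lower KO means, and Aqp2 and Aqp3 were not among the genes analysed here. They summed to 8.82, 5.56, 26.1 and 18.7 FPKM in KO 1 to 4, against 21.9 to 30.3 FPKM in WT libraries, with the KO libraries in the order of Wnt7b, and their part in its level was not tested either.

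Wnt9a followed, at 15.32, 15.45, 49.17 and 24.01 FPKM in KO, against 16.87, 23.17, 25.29 and 7.57 FPKM in WT, with overlapping groups. Wnt5a, a ligand best known for signalling without beta-catenin, averaged 8.52 ± 4.36 FPKM in KO and 8.49 ± 2.55 FPKM in WT (SD, n = 4 each). Wnt4, which drives the formation of the nephron tubule, averaged 3.63 ± 1.80 FPKM in KO and 2.84 ± 1.18 FPKM in WT. Wnt10b was the single ligand without overlap, at 0.46, 0.62, 0.47 and 0.40 FPKM in KO, against 0.82, 1.35, 0.94 and 0.92 FPKM in WT. These Wnt10b levels rest on 25 to 38 reads per KO library and 48 to 78 per WT library (log2 fold change -0.42, SE 0.15, limma adjusted p = 0.204). The remaining ligands (Wnt2, Wnt2b, Wnt5b, Wnt10a, Wnt11 and Wnt16) had log2 fold changes between -0.53 and 0.53, with overlapping groups. Wnt16 ranged from 0.76 to 5.31 FPKM among KO libraries and from 0.48 to 8.19 FPKM among WT libraries.

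Of the 10 receptor genes, 9 had a negative log2 fold change, and 5 of these had an unadjusted p below 0.05. Fzd6, the most abundant Frizzled, was at 31.44, 25.23, 17.74 and 19.48 FPKM in KO, against 33.58, 39.10, 34.92 and 26.13 FPKM in WT. The Fzd6 groups overlapped through KO 1 (log2 fold change -0.51, SE 0.21, limma adjusted p = 0.242). Fzd1 was at 7.88, 11.35, 6.85 and 10.42 FPKM in KO, against 14.22, 14.14, 13.58 and 15.80 FPKM in WT, without overlap (log2 fold change -0.63, SE 0.18, limma adjusted p = 0.158). Fzd3, a receptor of planar cell polarity, was at 1.60, 1.86, 0.70 and 0.96 FPKM in KO, against 3.06, 3.60, 2.53 and 2.23 FPKM in WT, also without overlap (log2 fold change -0.78, SE 0.22, limma adjusted p = 0.154). Fzd4, the receptor of the vascular ligand norrin as well as of Wnts, had the most negative log2 fold change of the family (-1.05). Its means were 6.53 ± 3.35 FPKM in KO and 14.1 ± 4.23 FPKM in WT (SD, n = 4 each), with KO 2 at 11.42 FPKM above WT 1 at 8.66 FPKM. As a ratio of the KO to the WT mean Fzd3 was as low, at 0.45 beside 0.46 for Fzd4.

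Fzd3 and Lrp6 are long genes by exon length and of low GC content. Their exon-union lengths were 12804 and 13672 bases and their GC contents 40.3% and 46.0%, beside medians of 3956 bases and 49.7% over all genes. With the trend of each library on length and GC content removed, the log2 fold change of Fzd3 was -0.15 instead of -0.78 and that of Lrp6 -0.34 instead of -0.89, while Fzd1, of 4197 bases and 55.7% GC, was at -0.74 instead of -0.63. Lrp6, the main Wnt co-receptor, was at 8.24, 11.79, 3.07 and 5.26 FPKM in KO, against 14.65, 12.74, 10.06 and 14.00 FPKM in WT. Its relative Lrp5 averaged 11.2 ± 3.97 FPKM in KO and 11.2 ± 2.02 FPKM in WT (SD, n = 4 each). Fzd2 was the receptor with a positive log2 fold change (0.19), and Fzd5, Fzd7 and Fzd8 lay at -0.29, -0.47 and -0.41, with overlapping groups.

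The secreted inhibitors split. Sfrp1 (ENSMUSG00000031548, GRCm38 chromosome 8, 23411502 to 23449632, plus strand), a decoy that binds Wnt ligands outside the cell, was at 0.62, 0.68, 0.22 and 0.49 FPKM in KO, against 1.56, 3.60, 2.34 and 7.52 FPKM in WT. The Sfrp1 groups did not overlap, and the KO mean was 0.13 of the WT mean. On the log2(FPKM + 1) scale the log2 fold change of -1.52 (SE 0.34) was the most negative of the 53 members, with a limma adjusted p of 0.110. Heyl, a Notch target, also had a KO mean of 0.13 of its WT mean, at -1.14 on this scale, which understates changes at low levels. Dkk2 (ENSMUSG00000028031, chromosome 3, 132085292 to 132180304, plus strand), which binds Lrp5 and Lrp6, was at 0.89, 1.09, 0.75 and 0.58 FPKM in KO, against 9.74, 3.13, 3.22 and 2.51 FPKM in WT, again without overlap (log2 fold change -1.48, SE 0.33, limma adjusted p = 0.110). WT 1 stood apart for Dkk2, and without it the log2 fold change was -1.12 (limma adjusted p = 0.123).

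Fibroblast and pericyte markers moved in the same direction as Dkk2. Of that list 6 of 9 genes had a row, 5 of them with lower KO means, and they summed to 25.3, 30.5, 38.6 and 38.8 FPKM in KO 1 to 4, against 455, 56.8, 69.3 and 35.9 FPKM in WT 1 to 4. Pdgfra, Dcn and Lum were not among the genes analysed here. WT 1 thus held the highest level of both Dkk2 and the fibroblast list, and the part of fibroblasts in the Dkk2 result was not tested. Sfrp1 was instead lowest among WT libraries in WT 1.

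Dkk3, a secreted relative that does not share the Lrp binding of Dkk2, was the most abundant inhibitor and went the other way, at 108.05, 93.02, 41.16 and 93.69 FPKM in KO, against 121.88, 37.62, 39.26 and 28.02 FPKM in WT. WT 1 lay above the KO libraries and the other WT libraries below them, so the groups overlapped (log2 fold change 0.72, SE 0.46, limma adjusted p = 0.392). Macrophage and leukocyte markers showed a like split among WT libraries. All 8 had a row and higher KO means, and they summed to 526, 1520, 191 and 979 FPKM in KO 1 to 4, against 954, 69.2, 85.5 and 45.5 FPKM in WT 1 to 4. Their part in the Dkk3 level was not tested.

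The cytoplasmic proteins showed no common direction, at a median log2 fold change of -0.11 over 5 genes. Dvl1, which relays the signal from Frizzled, was the most abundant, at 15.58, 27.24, 36.46 and 31.57 FPKM in KO, against 24.76, 22.69, 24.36 and 25.98 FPKM in WT. KO 1 lay below the WT range and the other KO libraries above it. Its relative Dvl3 was at 2.78 FPKM in KO 1, against 12.56 to 14.32 FPKM in KO 2 to 4 and 14.13 to 15.76 FPKM in WT. Dvl2 overlaps other genes, mainly Acadvl on the opposite strand, over up to 18.3% of its exonic length, and no source used here says whether counting used strand. Axin1, the scaffold of the destruction complex, averaged 17.2 ± 5.43 FPKM in KO and 17.8 ± 0.866 FPKM in WT (SD, n = 4 each).

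Apc, the second scaffold, was at 5.63, 9.75, 1.75 and 2.97 FPKM in KO, against 9.43, 10.35, 6.93 and 10.18 FPKM in WT (log2 fold change -0.94, SE 0.38, limma adjusted p = 0.234). The lowest Apc values were those of KO 3 and KO 4, and KO 2 lay within the WT range. Apc has the largest exon-union length of the members, at 16116 bases, and its longest transcript has 44.3% GC. The log2 fold change of Apc was -0.30 without the length and GC trend and -0.26 without KO 3 and KO 4.

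In the nucleus, the TCF factor Tcf7 was lower in each KO library. Tcf7 was at 2.40, 1.98, 2.68 and 3.32 FPKM in KO, against 4.83, 5.05, 4.40 and 6.31 FPKM in WT, a KO mean of 0.50 of the WT mean (log2 fold change -0.78, SE 0.18, limma adjusted p = 0.123). Without the length and GC trend Tcf7 was at -0.97, so that this difference did not shrink. Tcf7l1, mostly a repressor, was at 1.29 FPKM in KO 1 and 3.67 to 6.98 FPKM in KO 2 to 4, against 3.29 to 8.30 FPKM in WT. Tcf7l2, the factor most used in adult epithelia, averaged 2.76 ± 1.32 FPKM in KO and 3.01 ± 0.221 FPKM in WT (SD, n = 4 each).

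The Tle corepressors, which bind TCF as well as Hes factors, had a median log2 fold change of -0.09 over 5 genes. Tle3, the most abundant of these 5, was at 6.07, 13.09, 8.90 and 13.26 FPKM in KO, against 10.80, 9.58, 9.70 and 12.66 FPKM in WT, so the KO libraries spanned the WT range. Tle5 had its row under the older symbol Aes and so fell outside the members. Aes was higher than Tle3, at 102.89 to 341.80 FPKM in KO and 95.71 to 136.67 FPKM in WT, with overlapping groups (log2 fold change 0.63, SE 0.36, limma adjusted p = 0.348). Tle6, a divergent Tle, was the single one of the 41 Wnt members with KO values wholly above WT, at 0.95, 1.34, 1.04 and 1.03 FPKM in KO, against 0.83, 0.63, 0.78 and 0.88 FPKM in WT (log2 fold change 0.23, SE 0.15, limma adjusted p = 0.393). It was at 0.02 without the length and GC trend. Tle4 averaged 1.52 ± 0.728 FPKM in KO and 2.84 ± 0.541 FPKM in WT (SD, n = 4 each), with KO 2 at 2.60 FPKM inside the WT range of 2.25 to 3.54 FPKM.

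The feedback genes Axin2, Rnf43 and Znrf3 are switched on by beta-catenin in many tissues and restrain the pathway. None of the 3 had overlapping groups, and each was lower in KO, beside 6.86% of all genes that were lower without overlap. Rnf43, a membrane ubiquitin ligase that removes Frizzled from the surface, was at 0.31, 0.68, 1.33 and 0.77 FPKM in KO, against 1.82, 1.99, 2.49 and 1.69 FPKM in WT (log2 fold change -0.78, SE 0.20, limma adjusted p = 0.144). Its relative Znrf3 was at 1.62, 2.78, 0.99 and 1.54 FPKM in KO, against 2.87, 3.16, 2.85 and 3.35 FPKM in WT (log2 fold change -0.61, SE 0.21, limma adjusted p = 0.197). Axin2 was low in both groups, at 0.25 to 0.43 FPKM in KO and 0.53 to 0.75 FPKM in WT, on 26 to 42 reads per KO library and 51 to 71 per WT library. The log2 fold change of Axin2 was -0.26 (SE 0.14, limma adjusted p = 0.319), a scale that understates changes at levels below 1 FPKM. Without the length and GC trend Rnf43, Znrf3 and Axin2 were at -0.73, -0.39 and -0.26.

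**Figure D2:**
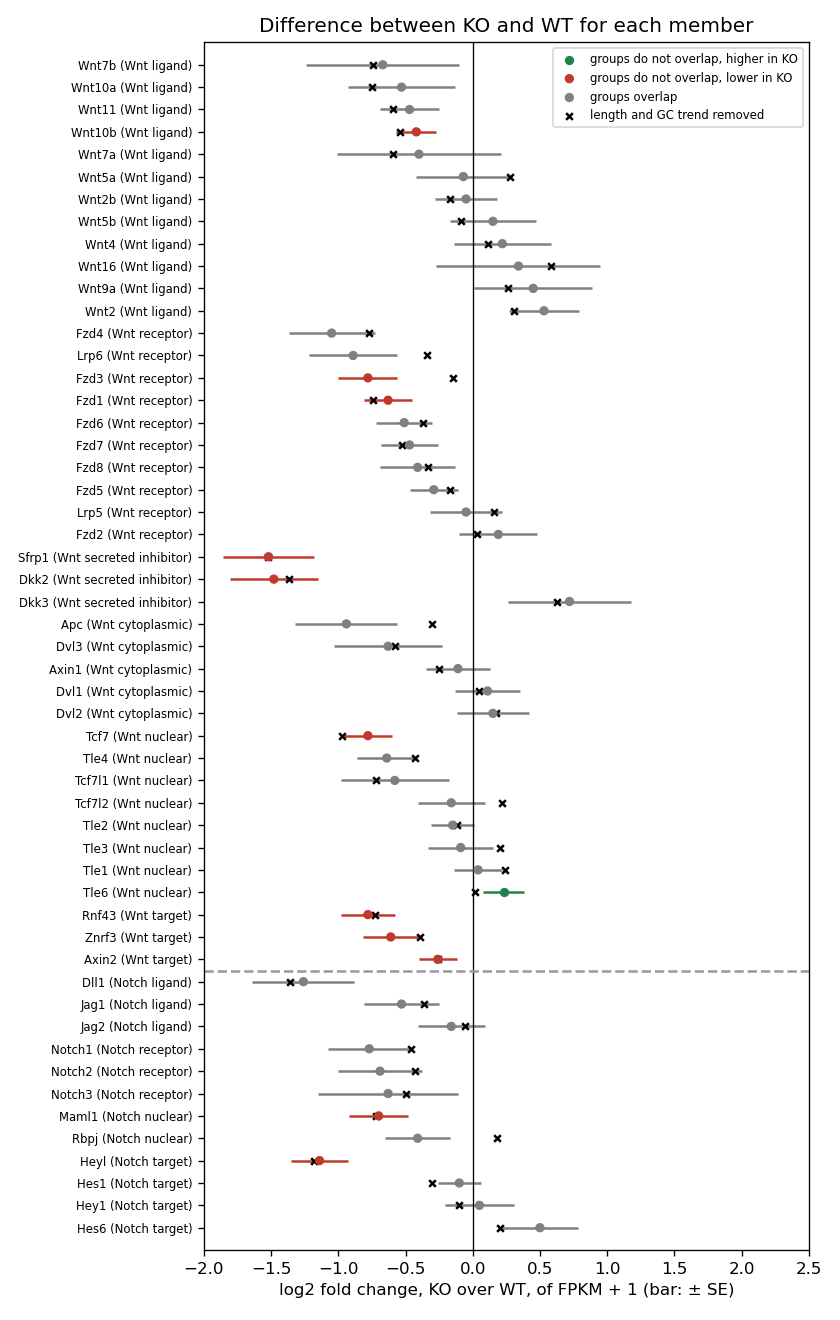
Log2 fold change of FPKM + 1, KO over WT, for the 53 members by role, with bars of ± 1 SE. Coloured points mark members whose 4 KO and 4 WT values do not overlap, and crosses give the value with the length and GC trend of each library removed: Fzd3, Lrp6 and Apc move towards 0, while Sfrp1, Dkk2, Tcf7, Rnf43, Dll1 and Heyl stay where they were or move little.

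Beside the members, 45 of 61 further Wnt names (ligand release, other co-receptors, kinases, planar polarity and target genes) had a row, and 0 passed an adjusted p of 0.05. The names Aes and Tle5 stand for 1 gene, and so do Wisp1 and Ccn4, and each had its row under the first name. Of the 45 genes 13 were lower and 1 higher at an unadjusted p below 0.05, beside 11.6% and 7.58% of all genes. The groups did not overlap for 10 lower genes (22.2%) and 1 higher gene (2.22%), beside 6.86% and 4.76% of all genes. The lowest p-values belonged to Amer1, which tethers Apc at the membrane, at 1.72 ± 0.635 FPKM in KO and 4.32 ± 0.344 FPKM in WT, and Prickle1, a planar polarity protein, at 3.48 ± 1.07 FPKM in KO and 9.41 ± 2.23 FPKM in WT (SD, n = 4 each). The limma adjusted p was 0.0996 for both. Tnks and Tnks2, the tankyrases that mark Axin for destruction, followed at log2 fold changes of -0.91 and -1.10. Without the length and GC trend Prickle1 was at -1.26 and Amer1, Tnks and Tnks2 at -0.61, -0.35 and -0.59.

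**Figure D3:**
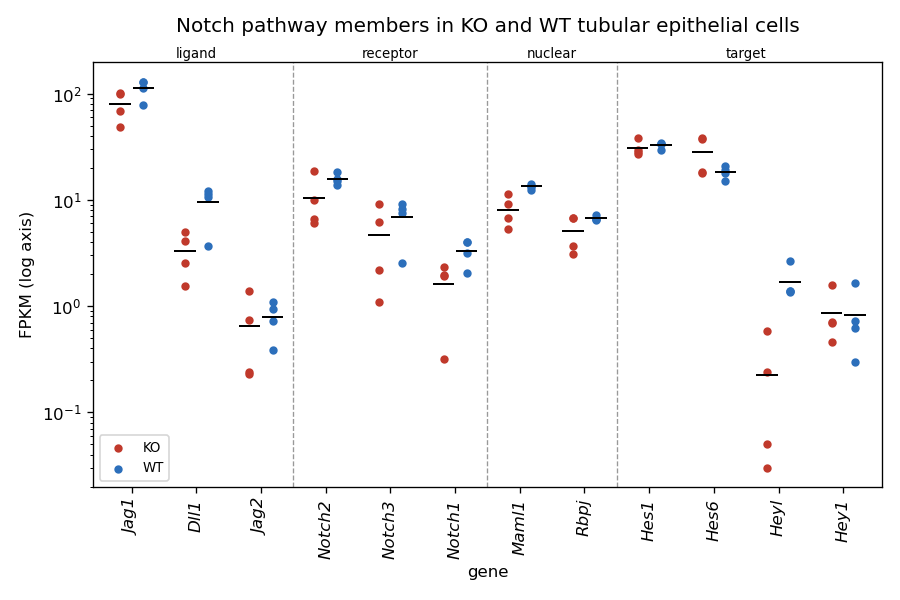
FPKM of the 12 Notch pathway members on a log axis, grouped by role, with each of the 4 KO libraries (red) and 4 WT libraries (blue) as a point and the group mean as a black bar. Heyl and Maml1 show KO points wholly below the WT points, and Dll1 does so apart from WT 4.

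Of the Notch ligands, Jag1 was by far the most abundant and Dll1 differed most. Jag1, the main ligand of tubular epithelium, was at 99.19, 100.85, 48.09 and 67.99 FPKM in KO, against 113.33, 129.37, 128.66 and 77.58 FPKM in WT. WT 4 lay within the KO range, and the log2 fold change of -0.53 (SE 0.28) had a limma adjusted p of 0.315. Dll1 was at 1.54, 2.54, 4.95 and 4.09 FPKM in KO, against 11.45, 12.25, 10.73 and 3.68 FPKM in WT. WT 4 again lay within the KO range, and the other WT libraries held more than 10 FPKM (log2 fold change -1.26, SE 0.38, limma adjusted p = 0.166). Of the exonic length of Dll1 20.5% overlaps a gene on the opposite strand. Jag2 ranged from 0.23 to 1.39 FPKM in KO and from 0.39 to 1.10 FPKM in WT.

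The 3 measured receptors had negative log2 fold changes of -0.63 to -0.77, each with overlapping groups. Notch2, the receptor most tied to proximal nephron fate, was the most abundant, at 6.55, 18.67, 6.08 and 10.00 FPKM in KO, against 14.97, 15.87, 13.93 and 18.47 FPKM in WT. KO 2 held the highest Notch2 value of the 8 libraries (log2 fold change -0.69, SE 0.31, limma adjusted p = 0.258). Notch1 was at 0.32, 1.92, 1.96 and 2.32 FPKM in KO, against 3.15, 4.03, 4.04 and 2.07 FPKM in WT. Notch3, best known from vascular mural cells, was at 1.10, 2.18, 9.24 and 6.18 FPKM in KO, against 9.05, 7.59, 8.21 and 2.52 FPKM in WT, with KO 3 the highest and WT 4 the lowest of its group. WT 4 had the lowest value of its group for each Notch member but Notch2 and Heyl, for which it had the highest.

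The nuclear partners differed in how far they followed. Maml1, the Mastermind coactivator, was at 5.33, 11.25, 6.73 and 9.13 FPKM in KO, against 14.24, 13.60, 13.29 and 12.35 FPKM in WT, without overlap (log2 fold change -0.70, SE 0.22, limma adjusted p = 0.172; -0.72 without the length and GC trend). Rbpj, the DNA-binding partner, was at 6.73, 6.73, 3.09 and 3.68 FPKM in KO, against 7.28, 6.58, 6.61 and 6.47 FPKM in WT. KO 1 and KO 2 lay at the WT level of Rbpj and KO 3 and KO 4 below it, and its log2 fold change was 0.18 instead of -0.41 without the length and GC trend.

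Among the Hes and Hey genes Heyl stood apart from the others. Heyl (ENSMUSG00000032744, GRCm38 chromosome 4, 123233556 to 123249875, plus strand, protein coding), a basic helix-loop-helix repressor switched on by Notch in vascular smooth muscle and other tissues, was at 0.03, 0.58, 0.05 and 0.24 FPKM in KO, against 1.39, 1.37, 1.40 and 2.66 FPKM in WT. These levels rest on 3, 53, 5 and 22 reads in KO 1 to 4 and on 123, 119, 127 and 236 reads in WT 1 to 4. The groups did not overlap, the KO mean of Heyl was 0.13 of the WT mean, and the log2 fold change of -1.14 (SE 0.21) had the lowest limma adjusted p of the 53 members, 0.0996. In the authors' deposited table Heyl has a log2 fold change of -2.91 and an adjusted p of 4.98e-04, the single member below 0.05 there, in a comparison where 0.375% of all genes are. Without WT 4, the highest library, the log2 fold change of Heyl by limma was -0.98 (adjusted p = 0.161).

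Endothelial markers were lower in KO beside Heyl. Of that list 3 of 8 genes had a row, all 3 with lower KO means, and they summed to 1.55 to 3.29 FPKM in KO and 5.10 to 7.16 FPKM in WT. Pecam1, Cdh5, Kdr, Tek and Tie1, which define endothelium, were not among the genes analysed here. The part of endothelial or mural cells in the Heyl and Notch3 levels was not tested.

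Hes1, the classical Notch target, was the most abundant of the targets, with overlapping groups, at 37.97, 29.36, 26.96 and 28.13 FPKM in KO, against 33.46, 33.46, 34.53 and 29.16 FPKM in WT (log2 fold change -0.10, SE 0.16, limma adjusted p = 0.736). Hey1 was at 0.46 to 1.57 FPKM in KO and 0.30 to 1.65 FPKM in WT. Hes6, an atypical family member that counteracts Hes1, was at 18.41, 17.90, 37.83 and 37.63 FPKM in KO, against 19.22, 18.07, 20.93 and 15.18 FPKM in WT. Its level in KO 1 and KO 2 was that of WT libraries and in KO 3 and KO 4 above them. Hes6 is short and GC-rich, at 1808 bases and 61.7% GC, and its log2 fold change of 0.50 was 0.20 without the length and GC trend.

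Of 48 further Notch genes (other ligands, proteases, glycosyltransferases, ubiquitin ligases and cofactors) 41 had a row and 0 passed an adjusted p of 0.05. At an unadjusted p below 0.05, 8 were lower (19.5%) and 3 higher (7.32%), beside 11.6% and 7.58% of all genes. The groups did not overlap for 1 lower and 1 higher gene (2.44% each), below the 6.86% and 4.76% of all genes. Ep300, an acetyltransferase recruited by Mastermind, had the lowest p-value, at 5.75 ± 3.20 FPKM in KO and 12.2 ± 1.11 FPKM in WT (SD, n = 4 each; log2 fold change -1.07, limma adjusted p = 0.145). Dtx3l, a Deltex-family ubiquitin ligase, followed at -0.76. Psenen and Psen2, subunits of the gamma-secretase that cuts Notch, were at 0.50 and 0.44, with KO values of Psen2 of 6.39 to 9.42 FPKM wholly above its WT values of 5.00 to 5.95 FPKM.

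Start-site sequences were searched for the cores that the nuclear factors of both pathways bind. RefSeq windows of 250 bases before to 50 bases after the start (GRCm38.p6) were on hand for 36 of the 53 members, in 47 windows. The TCF/LEF core, written CTTTGA or TCAAAG on the other strand, was in 5 of the 47 member windows and in 16% of all 32851 windows. The 5 genes were Fzd1, Jag1, Maml1, Wnt11 and Wnt5b. The Rbpj core TGGGAA, or TTCCCA, was in 7 of the 47 member windows, of 6 genes (Dvl1, Rbpj, Tcf7l1, Tle6, Wnt5b and Wnt9a), and in 25.6% of all windows. Of the 8 members without overlap that had a window, Fzd1 and Maml1 held the TCF/LEF core and Tle6 the Rbpj core. The windows of Fzd1 (chr5:4758167-4758466, minus strand) and Maml1 (chr11:50292287-50292586, minus strand) are shown because they hold the TCF/LEF core, in capitals at -242 and -78 from the start, and that of Axin2 (chr11:108920099-108920398, plus strand), the textbook Wnt target, because those letters are not in it.
Fzd1: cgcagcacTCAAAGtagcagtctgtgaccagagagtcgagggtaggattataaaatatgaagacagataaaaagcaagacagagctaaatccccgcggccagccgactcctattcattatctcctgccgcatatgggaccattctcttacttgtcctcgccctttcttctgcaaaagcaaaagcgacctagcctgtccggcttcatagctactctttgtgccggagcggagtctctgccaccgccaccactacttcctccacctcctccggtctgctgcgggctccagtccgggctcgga
Maml1: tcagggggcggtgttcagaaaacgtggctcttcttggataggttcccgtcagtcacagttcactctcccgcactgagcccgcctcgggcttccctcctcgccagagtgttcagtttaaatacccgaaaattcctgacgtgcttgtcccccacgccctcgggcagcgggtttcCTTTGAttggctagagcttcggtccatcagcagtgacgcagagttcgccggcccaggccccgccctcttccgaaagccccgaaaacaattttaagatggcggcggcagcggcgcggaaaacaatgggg
Axin2: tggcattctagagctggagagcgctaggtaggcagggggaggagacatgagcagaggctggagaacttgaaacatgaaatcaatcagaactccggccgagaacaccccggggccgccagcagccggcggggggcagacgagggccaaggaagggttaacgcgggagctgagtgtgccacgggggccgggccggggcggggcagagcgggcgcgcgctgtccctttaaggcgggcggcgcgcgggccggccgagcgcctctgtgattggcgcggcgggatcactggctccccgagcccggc
The Axin2 window is 70.0% G and C, against 54.0% for Fzd1 and 59.3% for Maml1. A match of these letters is a description of the window and does not show binding. The RefSeq start of Fzd1 lies upstream of the GENCODE gene used for its length.

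**Figure D4:**
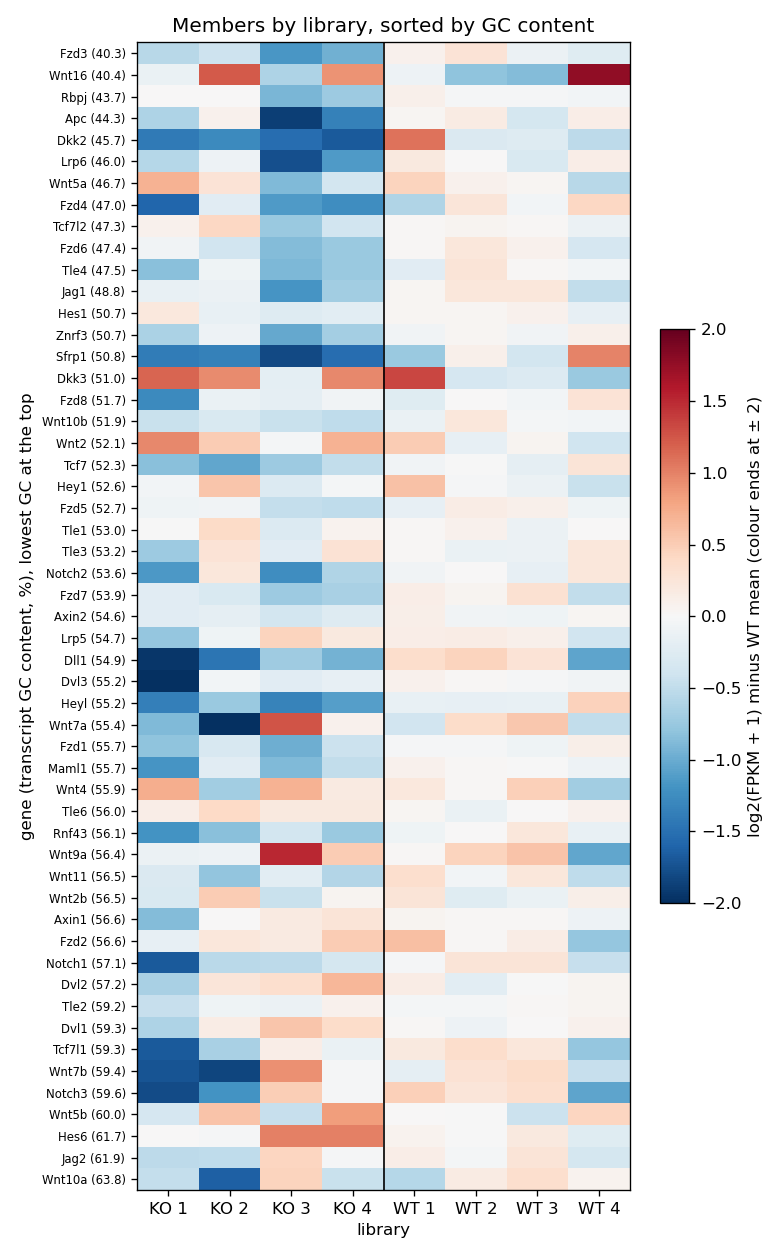
Log2(FPKM + 1) of each member minus its WT mean in KO 1 to 4 and WT 1 to 4, with genes sorted from the lowest GC content (top, Fzd3 at 40.3%) to the highest (bottom, Wnt10a at 63.8%). In KO 3 blue cells gather at the top and red ones towards the bottom. The Dkk2, Sfrp1, Tcf7, Dll1, Heyl and Rnf43 rows are blue in each KO library, as are others such as Fzd1, Fzd3, Fzd4 and Maml1. Dll1 is also blue in WT 4 and Sfrp1 in WT 1.

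The libraries differed in which members were low. Across the 53 members the difference from the WT mean increased with GC content in KO 3 and KO 4 (Spearman rho 0.70 and 0.51), against -0.21 and -0.17 in KO 1 and KO 2 and -0.19 to 0.49 in WT libraries. With length, rho was -0.26, 0.06, -0.40 and -0.37 in KO 1 to 4 and -0.14 to 0.19 in WT libraries. These values describe genes of shared libraries and are no test. The median over the Wnt members was -0.55, -0.10, -0.36 and -0.16 in KO 1 to 4, against -0.06 to 0.03 in WT libraries. The median over the Notch members was -0.83, -0.19, -0.61 and -0.43 in KO 1 to 4, against -0.30 to 0.14 in WT libraries. KO 1 was thus lowest and KO 2 nearest to WT for both pathways. All 5 markers of cycling cells had lower KO means and summed to 9.91, 23.4, 5.50 and 8.76 FPKM in KO 1 to 4, against 15.5 to 24.2 FPKM in WT libraries, so that KO 2 alone lay within the WT range, and their part in the pathway medians was not tested. Without the length and GC trend the medians were -0.26 for Wnt and -0.39 for Notch, with 27 of 41 and 10 of 12 members lower, beside 0.00 over all genes, and 0 members passed an adjusted p of 0.05, where 0.0142% of all genes passed.

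Sex and group were partly bound together, since the female libraries were KO 1 and KO 2. Among the male libraries alone, KO 3 and KO 4 against the 4 WT libraries, 16 Wnt members were lower (39.0%) and 2 higher at an adjusted p below 0.05 by limma, where 44.4% of all genes passed (26.7% lower and 17.6% higher). Of the Notch members 5 were lower (41.7%) and 1 higher. The median log2 fold change in male libraries was -0.19 over the Wnt members and -0.57 over the Notch members, beside -0.11 over all genes. The lower Wnt members in males included Sfrp1 (-1.67, adjusted p = 0.0255), Dkk2 (-1.61, adjusted p = 0.0263), Tcf7 (-0.62, adjusted p = 0.0211) and Rnf43 (-0.55, adjusted p = 0.0438), and the higher ones were Dvl1 and Dvl2. With both trends removed as well, 7 Wnt members and 4 Notch members were lower (17.1% and 33.3%) and 0 higher, where 22.9% of all genes passed (10.7% lower and 12.2% higher). The 7 were Apc, Wnt10b, Tcf7, Fzd1, Fzd7, Sfrp1 and Znrf3, and the 4 were Maml1, Notch2, Hes1 and Heyl. With all 8 libraries and sex as a covariate, 14 Wnt members were lower and 0 higher, and 3 Notch members lower and 1 higher. In that fit 34.2% of all genes passed (21.6% lower and 12.6% higher). Since both female libraries were KO, it too takes the group difference from KO 3 and KO 4 against WT. Its log2 fold changes were those of the male libraries, so it is no second estimate. Leaving out KO 2 alone gave 9 Wnt and 3 Notch members lower and 0 higher, where 8.05% of all genes passed (5.28% lower and 2.77% higher). The male and the sex-covariate comparisons rest on the pair KO 3 and KO 4, whose trend on GC content was the strongest of the 8 libraries.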

How the data were processed

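RNA of cultured tubular epithelial cells was sequenced in 8 libraries. FastQC, STAR 2.4.1d and DESeq2 with the GRCm38 build are named per the submitters' processing notes; no source used here gives the counter, annotation or row filter. The authors deposited 1 value per gene and library with decimals, treated here as FPKM, and beside it a log2 fold change, a p-value and an adjusted p-value of their own comparison, per the file headers. Multiplied by exon-union lengths of GENCODE M21 (GRCm38, 14129 of the rows), the FPKM fell on whole reads: 95.0% to 95.5% of low values lay within 0.05 read, against 7.4% to 10.6% with a wrong step. A floor is 3 reads and covers counting error. The unused value columns number 0.

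limma 3.58.1 (R 4.3.3, variance trend) compared KO with WT on log2(FPKM + 1) over all 14145 genes and 8 libraries with no covariate, and p-values were adjusted by Benjamini-Hochberg (threshold 0.05). The method was tested on simulated data with the spread of the WT libraries in both groups and changes larger than those of any member in this comparison. Its power at the changes and the KO spread seen here was not checked. Fold changes on this scale understate low genes. GC content is that of the longest transcript, and trends were removed by lowess (span 0.3). The members and lists were chosen with earlier results of these data known. Values of each library are given for members whose groups do not overlap with a mean of at least 1 FPKM in a group and for the most abundant member of each role; any member may be named. Wnt7b, Wnt9a, Lrp6, Apc, Dll1, Notch1, Notch3, Rbpj and Hes6 are also given by library, chosen after their values were seen. Of the further lists the 4 genes of lowest p are described, and Aes as well because it is the older name of Tle5. Alternatives were a pseudocount of 0.1, a filter of 1 FPKM in 4 libraries, median-ratio scaling, a replicate block, sex as a covariate, male libraries alone, length trend removal, limma-voom on recovered reads and leaving out libraries; removal of the length and GC trend was added after seeing the data. Python 3.11.15, pandas 2.3.3, numpy 2.4.6 and matplotlib 3.10.9 handled tables and plots.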

Additional observations from a re-analysis of the deposited data

Results flagged for a closer look

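Among 106 groups of 4 values (53 members in KO and WT), 8 held a library far from the other 3 of its group; chance flags about 1 in 20 groups. In KO 1, Dvl3 was at 2.78 FPKM, against 12.56 to 14.32 FPKM in the other KO libraries, and Fzd8 at 4.07 FPKM, against 9.85 to 10.69 FPKM. In KO 2, Tle4 was at 2.60 FPKM, against 1.05 to 1.28 FPKM in the other KO libraries. WT 1 stood high for Dkk2 at 9.74 FPKM, against 2.51 to 3.22 FPKM in the other WT libraries, and for Dkk3 at 121.88 FPKM, against 28.02 to 39.26 FPKM. WT 4 stood high for Heyl at 2.66 FPKM, against 1.37 to 1.40 FPKM, and for Wnt16 at 8.19 FPKM, against 0.48 to 1.53 FPKM, and low for Lrp5 at 8.24 FPKM, against 11.96 to 12.42 FPKM in the other WT libraries.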

How the results depend on the processing

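No member passed under the pseudocount of 0.1, the filter, median-ratio scaling, the replicate block, the length trend removed, the length and GC trend removed, limma-voom on recovered reads or the set without KO 3 and KO 4. Members passed where sex or KO 2 was taken out: with sex as a covariate 14 Wnt and 4 Notch members, in male libraries alone 18 and 6, in male libraries without the length and GC trend 7 and 4, and without KO 2 9 and 3, with 0 members without any other single library (range 0 to 9 and 0 to 3). The further Wnt and Notch lists gave 14 and 15, 17 and 20, 8 and 13, and 6 and 5 genes in the same 4 settings, against 0 and 0 (leave-one-out ranges 0 to 6 and 0 to 5). The count over all genes, 11, was 3 with the pseudocount of 0.1, 1 with the replicate block, 4838 with sex as a covariate, 6275 in male libraries, 2 without the length and GC trend, 3232 in male libraries without it and 7 with limma-voom. It was 1 to 1139 when single libraries were left out (1 without KO 1, KO 4, WT 1, WT 2 or WT 3, 3 without KO 3, 8 without WT 4, 1139 without KO 2). The Wnt median of -0.40 ranged from -0.40 to -0.24 (the -0.24 without KO 1) and the Notch median of -0.58 from -0.66 to -0.43 when single libraries were left out, and the Notch median was -0.30 with the length trend removed. The Wnt median was -0.19 in male libraries alone and with sex as a covariate, beside -0.11 over all genes in both. These settings share the same group difference, that of KO 3 and KO 4 against WT. Members without overlap numbered 10 for Wnt (10 to 15 with a library left out) and 2 for Notch (2 to 5, the 5 without WT 4). In male libraries they were 23 and 7, in male libraries without the length and GC trend 23 and 6, and without KO 3 and KO 4 Notch had 6. Fewer libraries make non-overlap more frequent by construction. The share of all genes without overlap was not computed in these settings, so these counts show nothing particular to the members. The cause of the other shifts was not tested.

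Whether the replicate numbers pair the libraries cannot be told from the values. Deviations of same-numbered libraries correlated at 0.05, -0.21, 0.60 and -0.05, and among the KO libraries only KO 3 correlated best with its own number. KO 3 and WT 3 each had the strongest trend on GC content of their group, and its part in the 0.60 was not tested. The replicate block moved the count over all genes to 1 and left the Wnt and Notch medians at -0.40 and -0.58 and the members called at 0. The sign of 7 members differed without the length and GC trend, of 10 in male libraries, of 14 in male libraries without that trend (Fzd3 among them, at 0.16) and of 9 without KO 3 and KO 4, none of them past the threshold in these fits. Depth limits Heyl in KO 1 and KO 3, at 3 and 5 reads.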
